A study of Cynoglossus semilaevis with 30 samples.

Results

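The size effect in pituitary was set against the size effect in muscle in Chinese tongue sole (Cynoglossus semilaevis), a flatfish of the sea, using females aged 1.7 years. For each gene, the difference between large and small females in pituitary, less the same difference in muscle, was tested as an interaction of size and tissue. The genes were chosen by their level: a mean of at least 1 CPM (a count scaled to the size of its library) in both tissues, and a gonad median CPM under 5 times the muscle median. In all, 8183 of 22292 genes met this rule, of which 8178 passed the filter on low counts and were tested and 5 were not. They are called the rule genes here. Another 4397 genes reached the level in both tissues but were over the gonad limit.

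The study compared a large with a small size class of females of the same age in brain, pituitary, liver, gonad and muscle. The 12 libraries used here were 3 of large pituitary, 3 of small pituitary, 3 of large muscle and 3 of small muscle. Each library held the pooled RNA of 2 fish, no treatment or genotype other than female sex is given, and the labels do not name the muscle sampled. Because whole tissues were sequenced, fewer cells of a type and less RNA per cell cannot be told apart in any level below.

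The pituitary releases growth hormone and other hormones into the blood under the control of the brain. Skeletal muscle is a main target of growth hormone and of the insulin-like growth factors, which act through receptors and JAK-STAT, PI3-kinase and mTOR signalling, and it breaks down its own protein by the proteasome and by autophagy when food is scarce. Immediate early genes encode transcription factors that cells switch on within minutes of a stimulus, and glucocorticoid and clock genes follow stress hormone and time of day. These pathways work in both tissues, so that a size effect in one can be set against that in the other.

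The rule used levels over both size classes. It did not use the difference between large and small females directly, although the muscle and pituitary libraries that set the levels also gave the tested differences. The gonad limit was not neutral to that difference, since genes over it were mostly higher in large muscle, as given below. At the gonad limit, hnrnpa1 stood just inside at 4.9993 times the muscle median, and LOC103388881 just outside at 5.0034 times. At the level limit, filip1 was inside and MSMB outside in pituitary at mean CPM of 1.0007 and 0.99827, and LOC103380740 was inside and gpr161 outside in muscle at 1.0001 and 0.99951. In 464 rule genes the mean of 1 size class lay under 1 CPM in a tissue, so that they passed through the other class. The interaction test called 58 of these 464, beside 726 of all 8178 rule genes tested (8.88%).

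Library totals ran from 6906731 to 9998812 counts. The tissue labels fitted their markers: 71 sarcomere genes summed to 356900 to 624900 CPM in large muscle and 506600 to 531500 CPM in small muscle, against 401.5 to 636.3 CPM in large pituitary and 480.9 to 490.2 CPM in small pituitary. The 42 pituitary hormone and secretory genes summed to 76570 to 104100 CPM in large pituitary and 91080 to 93800 CPM in small pituitary, against at most 65.9 CPM in muscle. The small libraries were nearly alike. Pairs of libraries of a group were compared by a chi-square over genes of moderate count, whose mean would be about 1 under counting noise. It was 5.18 to 18.6 in large pituitary and 1.69 to 1.82 in small pituitary. In muscle the mean was 18.2 to 27.4 in large muscle and 1.77 to 1.89 in small muscle. All p-values rest on this spread. The files do not show whether the 3 small libraries of a tissue are separate pools or repeats of 1 pool, and if they are repeats each small group counts as 1 sample.

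RNA of other tissues differed between libraries. Large pituitary replicate 2 held 138 genes typical of brain with a median of 20.1% of the level in brain, and the remaining pituitary libraries 0.888% to 1.16%. In muscle, 21 genes typical of gonad stood at 5.68%, 16.2% and 5.70% of their gonad level in large females and at 2.83% to 3.18% in small females. The 31 oocyte and egg genes summed to 2248 to 4357 CPM in large muscle and 972.1 to 1055 CPM in small muscle, while in pituitary they summed to 103.4 to 137.3 CPM in large and 120.5 to 128.3 CPM in small females. For 355 genes typical of liver, the median share of the liver level was 2.37%, 0.184% and 0.16% in large muscle and 1.89% to 2.13% in small muscle. Of the genes typical of brain, gonad and liver, 19, 0 and 126 were rule genes. The rule limited the gonad level but not the brain or liver level. The part of these differences between libraries in the results below was not tested, except where a value is given beside a result.

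Over the rule genes, the median interaction was 0.15 on the log2 scale, with a median size effect of -0.01 in pituitary and -0.15 in muscle. Genes over the gonad limit had a median interaction of -0.61 and a median size effect of 0.67 in muscle, and all 17034 genes tested had a median interaction of -0.10. Within the rule, genes with a gonad median of 2 to 5 times the muscle median had a median size effect of 0.01 in muscle, and those at 1 to 2 times had -0.18. The 4 ranges under 1 times had -0.32, -0.24, -0.33 and -0.28, going up in gonad level, with no order among them. Of the 4397 genes over the limit, 12 were called higher and 811 lower in the interaction. In muscle 1963 of them were called higher and 34 lower in large females. The limit thus bears on the split of calls below: with no gonad limit, 585 interactions were higher and 964 lower.

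The interaction test called 726 rule genes, or 8.88%, against 10.1% of all genes tested. The size effect was higher in pituitary for 573 genes (background 3.77%) and lower for 153 (background 6.32%). This split depended on scaling: with factors computed over the rule genes only, a choice made after seeing the data, 371 were higher and 365 lower. That scaling moved the median interaction of all rule genes by -0.19, and the interactions called higher below are to be read against it. Of the 726, 273 kept their call under all 4 other scalings and under all 12 omissions of 1 library, 228 of them higher and 45 lower, and 0 changed sign under a scaling.

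The number of calls depended on the small libraries. Without small pituitary replicate 1, 2 or 3 there were 382, 349 and 390 calls, and without small muscle replicate 1, 2 or 3 there were 414, 419 and 478. When the 3 small libraries of each tissue were summed to 1, edgeR called no rule gene in the interaction. The lone sum was then assumed to vary like the large libraries, and no other tool was run on it. With large pituitary replicate 2 and large muscle replicate 1 both left out, the fit called 1401.

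Most interactions came from muscle. In muscle 388 rule genes were higher in large females (background 16.5%) and 1488 lower (background 10%), and in pituitary 79 were higher (background 0.898%) and 120 lower (background 1.14%). The split in muscle also depended on scaling. With factors over the rule genes only, 880 were higher and 970 lower in muscle, and the median muscle size effect was 0.03. The muscle counts and medians of the lists below are to be read against it. Of the 573 genes with a higher interaction, 488 were lower in large muscle with no call in pituitary, 30 were higher in large pituitary with no call in muscle, 19 were both, and 32 were called in neither tissue alone. Of the 153 with a lower interaction, 98 were higher in large muscle only and 25 lower in large pituitary only. The size effect was larger in muscle for 500 of the 573 and 108 of the 153.

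Opposite directions, each called in its own tissue, were found for 22 rule genes (background 0.205%), 19 higher in large pituitary and lower in large muscle and 3 the reverse. The same direction in both tissues was found for 66, of which 5 were higher and 61 lower in large females (background 0.511%). Over all rule genes the pituitary and muscle size effects had a Pearson r of 0.18 across genes, which are not independent replicates, and 57.8% had the same sign in both tissues.

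**Figure D1:**
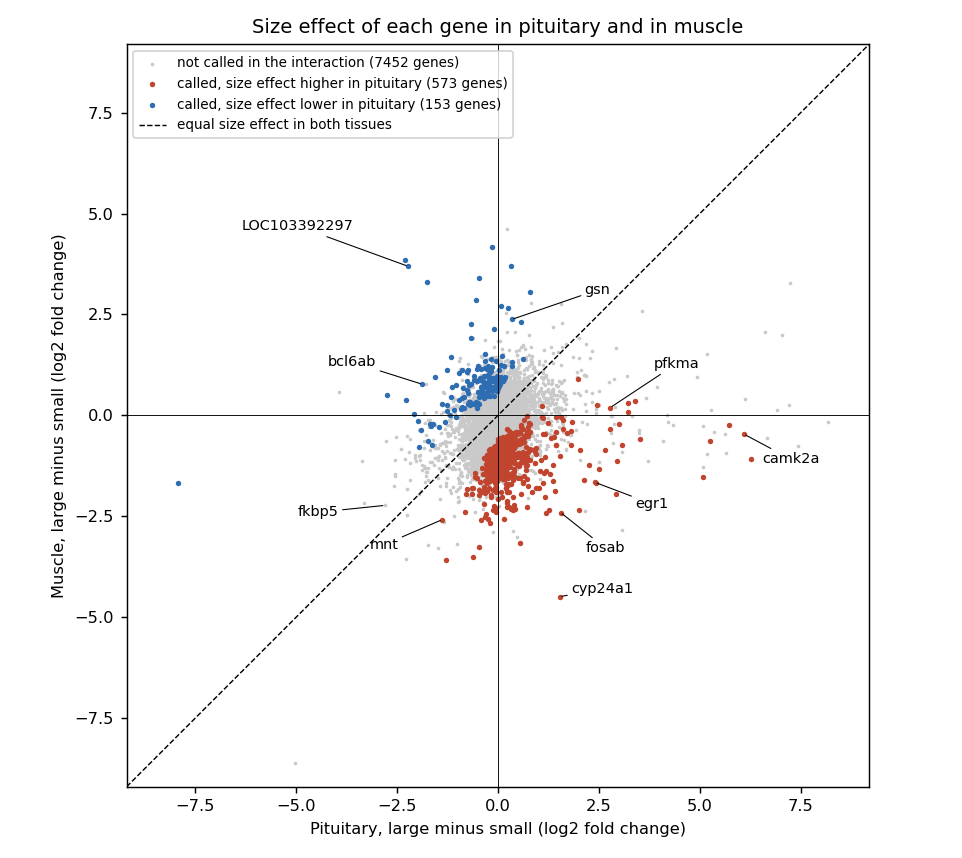
Each point is 1 of 8178 rule genes, with its log2 fold change between large and small females in pituitary on the x axis and in muscle on the y axis. The 573 red and 153 blue genes were called in the interaction. By definition the red genes lie below the dashed line of equal effects, where the muscle effect is the lower one, and the blue genes above it.

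Of 23 immediate early rule genes, 6 had a higher and 0 a lower interaction (7.01% and 1.87% of all rule genes), and their median size effect was 0.12 in pituitary and -0.83 in muscle. Their median interaction was 0.63, and 0.42 with factors over the rule genes only. In pituitary 3 were higher and 3 lower in large females, and in muscle 1 was higher and 13 were lower, against 4.74% and 18.2% of all rule genes. Of the genes shown next, egr1, fosl2, sik1 and btg1 are on this list and were named for a small interaction p. The related genes fosab, june, LOC103395765 and LOC103386020 are not on it and were named for a large interaction. None of the genes shown is one of the 3 list genes lower in large pituitary, so they do not stand for the whole list.

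The transcription factor gene egr1 had 42.4, 27.1 and 42.9 CPM in large pituitary, against 6.22, 6.36 and 8.53 CPM in small pituitary. Muscle had 12.04, 3.79 and 7.88 CPM in large females and 25.3, 20.8 and 26.2 CPM in small females. The size classes did not overlap in either tissue, and they lay in opposite order. The size effect was 2.41 ± 0.29 in pituitary and -1.66 ± 0.33 in muscle (log2 ± SE, adjusted p = 0.00088 and 0.00254), an interaction of 4.07 ± 0.44 (adjusted p = 0.000386). A second gene named as early growth response protein 1-like, LOC103395765, had 12.8, 7.85 and 10.3 CPM in large and 1.28, 2.07 and 2.38 CPM in small pituitary, and 2.95, 2.94 and 2.63 CPM in large and 7.36, 9.51 and 10.7 CPM in small muscle. Its interaction was 4.10 ± 0.42 (adjusted p = 0.000385). Whether these 2 genes share reads is not known from the files, so they may not be separate observations.

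The Fos genes fosab and fosl2 followed the same order of groups. The c-Fos-like gene fosab, whose product pairs with Jun proteins, had 18.8, 8.24 and 23.5 CPM in large pituitary, against 5.71, 6.05 and 5.50 CPM in small pituitary. In muscle it had 2.50, 3.37 and 4.96 CPM in large and 18.1, 20.8 and 17.4 CPM in small females. Neither pair of classes overlapped, and the interaction was 3.96 ± 0.48 (adjusted p = 0.000663). The Fos-related antigen gene fosl2 had 15.8, 14.8 and 20.8 CPM in large and 6.39, 7.16 and 7.47 CPM in small pituitary, and 2.27, 4.35 and 4.09 CPM in large and 8.96, 9.08 and 11.5 CPM in small muscle. Its interaction was 2.73 ± 0.34 (adjusted p = 0.000733).

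The jun-D-like gene june had 8.84, 4.63 and 7.96 CPM in large pituitary and 1.96, 1.99 and 0.903 CPM in small pituitary. Large muscle had 1.36, 1.54 and 2.63 CPM, and small muscle 3.78, 4.97 and 7.45 CPM. Its interaction was 3.73 ± 0.59 (adjusted p = 0.00325). The gene sik1, named in the files as a SIK2-like kinase, of a family that restrains CREB-driven transcription, had 39.3, 29.4 and 67.7 CPM in large and 19.3, 18.5 and 22.1 CPM in small pituitary. In muscle it had 3.18, 3.79 and 4.38 CPM in large and 23.3, 17.9 and 18.7 CPM in small females, with an interaction of 3.60 ± 0.40 (adjusted p = 0.000414).

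LOC103386020, similar to the orphan nuclear receptor nr4a1, had 23.2, 7.46 and 30.5 CPM in large pituitary and 2.21, 2.55 and 3.12 CPM in small pituitary. It had 23.9, 40.5 and 52.8 CPM in large muscle and 77.6, 89.9 and 87.5 CPM in small muscle. The interaction was 4.08 ± 0.58 (adjusted p = 0.0018). The antiproliferative gene btg1 differed in muscle alone, with 168.3, 129.3 and 194.1 CPM in large and 445.4, 407.5 and 428.5 CPM in small muscle (-1.38 ± 0.17, adjusted p = 0.000214). In pituitary its classes overlapped, at 212.6, 163.1 and 220.1 CPM in large and 169.8, 164.2 and 184.9 CPM in small females, and the interaction was 1.58 ± 0.24 (adjusted p = 0.00249). The interaction calls of these 8 genes kept their side of the threshold under all 12 omissions and all 4 other scalings. Some calls within a tissue did not. In pituitary the call of sik1 was lost without any small pituitary library (adjusted p up to 0.129), that of fosab also without large pituitary replicate 3 (up to 0.11), that of june without small pituitary replicate 1 or 3 (up to 0.076) and that of fosl2 without replicate 1 (0.0561). In muscle june lost its call without large replicate 2 or small replicate 3 (up to 0.0812), and LOC103386020 under 8 omissions (up to 0.108) and with factors over the rule genes only.

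Some of these genes were also high in small livers. The means in large and small livers were 16.1 and 239.5 CPM for egr1, 17.7 and 109.3 CPM for LOC103395765, and 5.95 and 200.5 CPM for fosab. The share of the liver level found for liver-typical genes was 1.89% to 2.13% in small muscle and at most 0.0458% in pituitary, and the part of liver RNA in the muscle values was not tested. In brain, 10 of 22 immediate early rule genes with at least 1 CPM were higher in large females (45.5%, against 49.9% of all rule genes), with a median of -0.10. In liver, 6 of 19 were higher (31.6%, against 46.4% of all rule genes), with a median of -0.40.

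**Figure D2:**
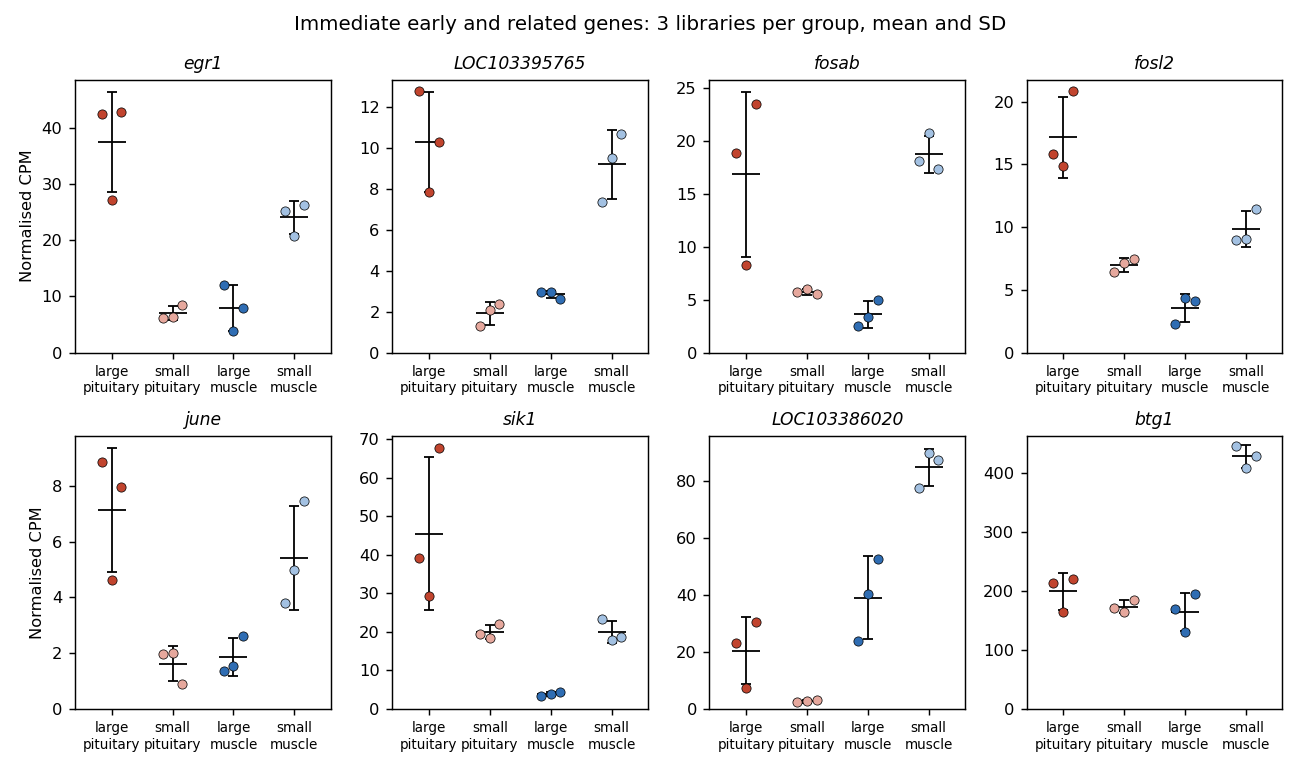
Normalised CPM of 8 immediate early and related genes in each library of large pituitary, small pituitary, large muscle and small muscle, with mean and SD of 3 libraries. In all but btg1, the large pituitary points lie above the small and the large muscle points below the small.

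Other genes with called opposite effects were of mixed kind. The neuron navigator gene nav3 had 12.6, 8.95 and 19.3 CPM in large and 5.03, 5.17 and 5.74 CPM in small pituitary, against 38.2, 39.96 and 39.99 CPM in large and 92.0, 96.9 and 86.4 CPM in small muscle (interaction 2.58 ± 0.30, adjusted p = 0.000564). LOC103394481, similar to regulator of G-protein signaling 8, was low in pituitary, at 1.38, 1.26 and 1.39 CPM in large and 0.596, 0.477 and 0.656 CPM in small females. In muscle it had 17.5, 22.1 and 17.2 CPM in large and 54.9, 46.3 and 46.6 CPM in small females (interaction 2.57 ± 0.30, adjusted p = 0.000495). It passed the level limit in pituitary through large females alone, and its pituitary call was lost without any 1 of the 6 pituitary libraries (adjusted p up to 0.212). UGT2B31, named for a UDP-glucuronosyltransferase that conjugates steroids and other small molecules, had 24.1, 16.6 and 19.3 CPM in large and 3.92, 3.50 and 3.20 CPM in small pituitary. It had 3.41, 7.43 and 2.63 CPM in large and 13.1, 11.7 and 11.1 CPM in small muscle, with an interaction of 3.81 ± 0.41 (adjusted p = 0.000386). Its mean in liver was 21.8 CPM in large and 137.7 CPM in small females. XLOC_009778, named for an immunoglobulin heavy chain, had 5.87, 4.002 and 16.1 CPM in large and 0.937, 0.795 and 1.64 CPM in small pituitary, and 1.82, 3.50 and 6.71 CPM in large and 11.9, 18.2 and 14.5 CPM in small muscle (interaction 4.87 ± 0.76, adjusted p = 0.00297). Its pituitary call was lost without small pituitary replicate 1 or 2 (adjusted p up to 0.09) and its muscle call without small muscle replicate 2 (adjusted p = 0.0578).

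The vitamin D 24-hydroxylase gene cyp24a1, which breaks down active vitamin D, had 8.91, 2.67 and 10.9 CPM in large pituitary, against 2.73, 2.62 and 2.38 CPM in small pituitary, where the classes overlapped. Large muscle had 0.909, 0.561 and 0.876 CPM and small muscle 19.5, 14.9 and 16.6 CPM, and the interaction was 6.03 ± 0.66 (adjusted p = 0.000391). With 11 counts over the 3 large muscle libraries, cyp24a1 reached the level limit in muscle through small females alone. This favoured a higher interaction. The gene averaged 354.2 CPM in large and 2538 CPM in small livers, and the part of liver RNA in its muscle values was not tested.

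Brain genes were high in 1 pituitary library. The kinase gene camk2a, a neuronal marker, had an interaction of 6.56 ± 1.89 (adjusted p = 0.0432), with 3.26, 195.5 and 6.94 CPM in large pituitary and 0.852, 0.875 and 1.23 CPM in small pituitary. The high value was in replicate 2, the library with brain genes at 20.1% of their brain level. Without that library the interaction was 2.78 (adjusted p = 0.0211). The call of camk2a was lost without large muscle replicate 1 or 2, or without any small library (adjusted p up to 0.0981). The myelin gene mpz had 0.942, 27.6 and 0.073 CPM in large and 0.0852, 0.0795 and 0.164 CPM in small pituitary (interaction 7.35 ± 1.96, adjusted p = 0.0321), and it too was lost without large muscle replicate 2 or any small library (adjusted p up to 0.0884). Without large pituitary replicate 2 the interaction of mpz was 3.17 (adjusted p = 0.0431). Of 55 neuron and glia markers, 13 were rule genes and 3 were called, against 8.88% of all rule genes. The called genes were camk2a, mpz and zic1. Of these, mpz and zic1, with 4 and 5 counts over the 3 small pituitary libraries, reached the level limit in pituitary through large females alone. For both, the limit favoured a higher interaction. The gene camk2a, with 36 counts there, was over the limit in small females too. The gene zic1 stood at 1.09, 2.12 and 0.584 CPM in large and 0.256, 0.0795 and 0.082 CPM in small pituitary (interaction 3.81 ± 0.61, adjusted p = 0.00359). The transport adaptor gene bicd1 had 2.68, 15.0 and 3.87 CPM in large and 1.96, 3.10 and 3.77 CPM in small pituitary. In muscle it had 7.27, 0.841 and 0.292 CPM in large and 14.5, 13.4 and 13.6 CPM in small females. Its size effect was called in muscle (-2.33 ± 0.78, adjusted p = 0.0416, up to 0.128 under an omission). In pituitary it was not called (1.27 ± 0.69, adjusted p = 0.406). The interaction of bicd1 was 3.60 ± 1.04 (adjusted p = 0.0439). That interaction call was lost without large pituitary replicate 2 (adjusted p = 0.0714), large muscle replicate 2 or 3 or any small library (up to 0.108), and with library totals alone. The 55 markers summed to 1058 to 2806 CPM in large pituitary and 938.0 to 947.7 CPM in small pituitary, and the part of brain RNA in these calls was not tested beyond the values without replicate 2.

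Of 20 rule genes of the growth hormone and IGF axis, 3 had a higher and 0 a lower interaction (7.01% and 1.87% of all rule genes). The median size effect was 0.12 in pituitary and -0.94 in muscle, and the median interaction was 1.09, or 0.88 with factors over the rule genes only. In large muscle 0 were higher and 8 lower (18.2% of all rule genes), and in large pituitary 0 were higher and 2 lower.

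The transcription factor gene stat3, which carries cytokine receptor signals to the nucleus, had 119.7, 112.6 and 140.1 CPM in large muscle and 310.9, 296.2 and 290.2 CPM in small muscle. In pituitary it had 328.0, 267.6 and 317.2 CPM in large and 261.1, 271.8 and 277.0 CPM in small females. The muscle classes lay far apart and the pituitary classes overlapped, and the interaction was 1.44 ± 0.19 (adjusted p = 0.00129). The gene cish, whose product damps growth hormone receptor signalling, had 35.1, 26.8 and 38.1 CPM in large and 22.9, 24.8 and 23.8 CPM in small pituitary, against 18.2, 17.0 and 22.5 CPM in large and 41.6, 39.6 and 35.2 CPM in small muscle. Its interaction was 1.51 ± 0.22 (adjusted p = 0.00232). The receptor gene igf2r, which clears IGF2 in mammals, had 50.2, 34.5 and 46.6 CPM in large and 49.1, 47.9 and 53.9 CPM in small pituitary. In muscle it had 43.2, 29.4 and 46.7 CPM in large and 121.6, 115.5 and 103.4 CPM in small females (interaction 1.32 ± 0.26, adjusted p = 0.00828).

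The other growth genes were not called in the interaction. The ligand gene igf1 had 0.725, 1.26 and 1.02 CPM in large and 1.53, 0.795 and 1.23 CPM in small pituitary, and 3.41, 2.52 and 4.38 CPM in large and 6.37, 8.65 and 7.65 CPM in small muscle. It was lower in large muscle (-1.17 ± 0.35, adjusted p = 0.0266), but its interaction was 0.92 ± 0.52 (adjusted p = 0.278). For the second ligand gene igf2 the interaction was 0.17 ± 0.40 (adjusted p = 0.841). For the growth hormone receptor gene ghr it was 0.74 ± 0.43 (adjusted p = 0.294). The feedback inhibitor socs3 was lower in large females in both tissues (-1.44 ± 0.21 in pituitary and -2.07 ± 0.22 in muscle), with an interaction of 0.63 ± 0.30 (adjusted p = 0.2). The binding protein gene igfbp1a was also lower in both (-1.33 ± 0.30 and -2.63 ± 0.35) and its interaction was 1.30 ± 0.47 (adjusted p = 0.0905), called without large muscle replicate 3 (adjusted p = 0.0158). The insulin receptor substrate gene irs2 had -0.43 ± 0.36 (adjusted p = 0.484) and igfbp5b 1.31 ± 0.59 (adjusted p = 0.173). The receptor gene igf1r and the binding protein gene igfbp5 are no rule genes, since igf1r was over the gonad limit, and igfbp5 averaged under 1 CPM in muscle. Their interactions were 0.60 ± 0.52 and -0.84 ± 0.86 (adjusted p = 0.5 and 0.608).

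Of 25 rule genes of insulin and mTOR signalling, 3 had a higher and 0 a lower interaction (7.01% and 1.87% of all rule genes). The median size effect was -0.06 in pituitary and -0.44 in muscle. With library totals alone, and with factors over the rule genes only, 1 interaction was higher. The gene tsc1a, for a subunit of the complex that restrains mTOR, had 20.9, 14.5 and 18.2 CPM in large and 23.0, 23.3 and 16.9 CPM in small pituitary, and 117.9, 102.5 and 85.5 CPM in large and 267.5, 256.9 and 247.0 CPM in small muscle. The interaction was 1.097 ± 0.25 (adjusted p = 0.0164), the highest adjusted p under an omission being 0.0498. For the PIP3 phosphatase gene ptena it was 0.69 ± 0.17 (adjusted p = 0.0205), a call lost without small muscle replicate 3 or small pituitary replicate 1 or 2 (up to 0.0694). For the PI3-kinase subunit gene pik3r1 it was 1.02 ± 0.25 (adjusted p = 0.0237), lost without large pituitary replicate 1, small muscle replicate 1 or 2 or any small pituitary library (up to 0.0737). Both calls were also lost with library totals alone and with factors over the rule genes only. The kinase gene mtor had 0.45 ± 0.19 (adjusted p = 0.147) and rictor, for a subunit of its second complex, 0.75 ± 0.23 (adjusted p = 0.0543). The interaction of rictor was called without large muscle replicate 3 (adjusted p = 0.0243) and under 2 of the 4 other scalings.

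On the list of 41 protein breakdown, atrophy and autophagy rule genes, 5 had a higher and 0 a lower interaction (7.01% and 1.87% of all rule genes). In large muscle 2 were higher and 16 lower, against 4.74% and 18.2% of all rule genes. The median interaction was 0.43, and 0.25 with factors over the rule genes only, a scaling that called 3 higher and 2 lower.

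The lipid transfer gene atg2a, which feeds the growing autophagosome, had 34.7, 27.5 and 38.3 CPM in large and 28.5, 27.8 and 29.1 CPM in small pituitary. In muscle it had 42.7, 34.9 and 43.2 CPM in large and 124.0, 118.7 and 110.5 CPM in small females. The muscle classes were far apart, and the interaction was 1.79 ± 0.20 (adjusted p = 0.000495). Its paralog atg2b had 45.3, 35.2 and 45.5 CPM in large and 38.6, 42.6 and 41.2 CPM in small pituitary, and 23.6, 18.6 and 30.6 CPM in large and 53.1, 53.6 and 48.7 CPM in small muscle (interaction 1.15 ± 0.24, adjusted p = 0.0101). For wipi2, which binds PI3P on the forming membrane, the interaction was 0.85 ± 0.18 (adjusted p = 0.0102), lost with library totals alone. The initiation complex gene rb1cc1 had 0.77 ± 0.21 (adjusted p = 0.0327), lost without large pituitary replicate 1 or 3, small muscle replicate 1 or 2 or any small pituitary library (up to 0.0936) and with factors over the rule genes only. The muscle ubiquitin ligase gene fbxo32 had 351.5, 343.5 and 132.8 CPM in large and 442.0, 467.9 and 474.0 CPM in small muscle, where its size effect was -0.74 ± 0.28 (adjusted p = 0.066), and its interaction was 0.40 ± 0.40 (adjusted p = 0.565). The forkhead genes foxo1 and foxo3, activators of atrophy genes, had 1.73 ± 0.52 (adjusted p = 0.0523) and 0.79 ± 0.31 (adjusted p = 0.118). The gene foxo1 was called without large pituitary replicate 2 (adjusted p = 0.0133), without large muscle replicate 2 (2.86, adjusted p = 0.0228) and under 2 of the 4 other scalings, and foxo3 without large muscle replicate 3 (adjusted p = 0.0217). With 12 counts over the 3 large muscle libraries, foxo1 reached the level limit in muscle through small females alone.

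**Figure D3:**
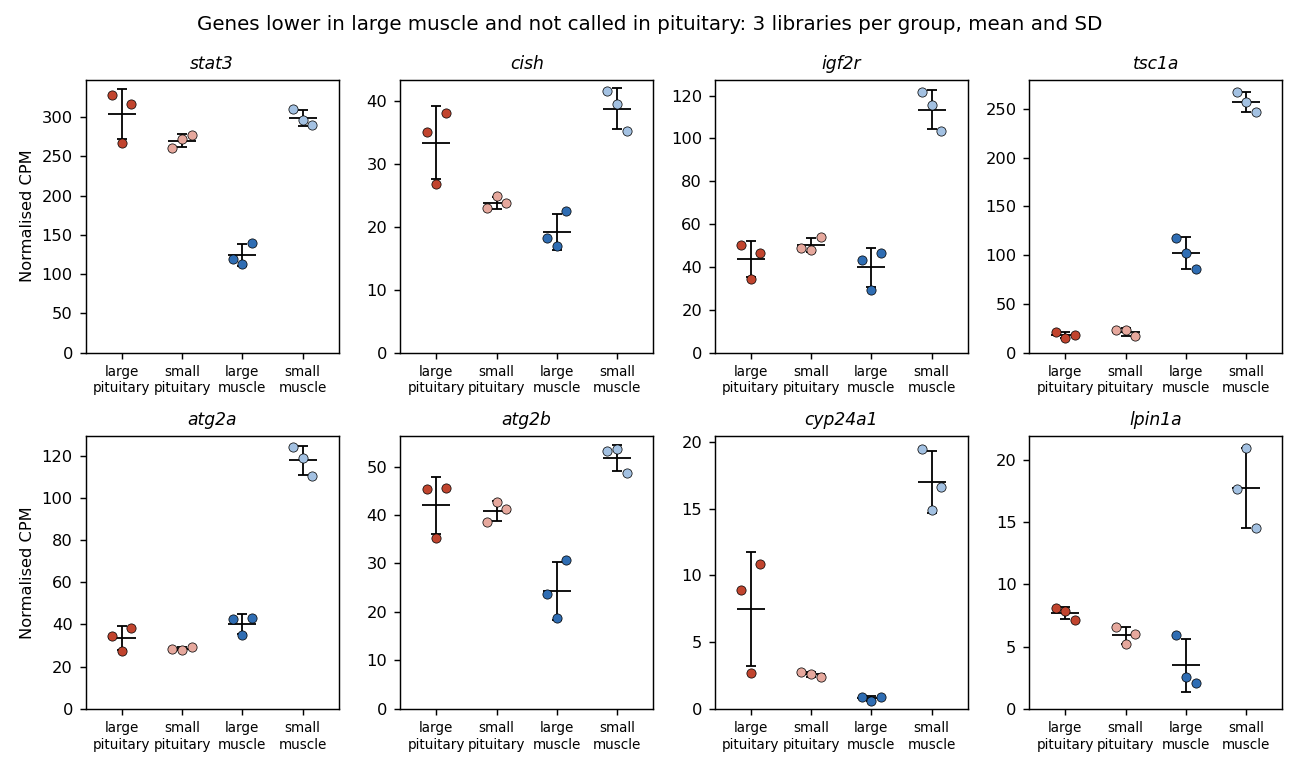
Normalised CPM in each library for 8 genes called lower in large muscle, not called in pituitary and called in the interaction, with mean and SD of 3 libraries. In muscle every large point lies below every small point, while in pituitary the classes are close or the large are higher.

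Of 26 rule genes that respond to glucocorticoids, 6 were lower in large pituitary (1.47% of all rule genes) and 16 in large muscle (18.2% of all rule genes), with 0 higher in either. The interaction was higher for 4 and lower for 1 (7.01% and 1.87% of all rule genes), with a median of 0.56. Lists share genes, so these calls are not all separate from those of other lists. The lower gene, per1, is also on the clock list, and pik3r1, called higher, is also on the insulin and mTOR list. With factors over the rule genes only the interaction was higher for 2 and lower for 2, with a median of 0.39, and with library totals alone higher for 2 and lower for 1. The gene fkbp5, a chaperone partner that glucocorticoids induce, had 19.9, 31.9 and 53.9 CPM in large and 241.9, 248.1 and 249.4 CPM in small pituitary, and 7.04, 21.9 and 16.3 CPM in large and 72.2, 70.9 and 72.4 CPM in small muscle. It was lower in large females in both tissues (-2.81 ± 0.35 and -2.23 ± 0.36), and its interaction was -0.58 ± 0.48 (adjusted p = 0.482). The zinc finger gene zbtb16b had 1.16, 0.785 and 1.75 CPM in large and 0.426, 0.795 and 0.574 CPM in small pituitary, against 5.68, 10.8 and 10.8 CPM in large and 33.0, 35.9 and 27.1 CPM in small muscle (interaction 2.83 ± 0.49, adjusted p = 0.00493). In pituitary zbtb16b was near the level limit, with 50 counts over the large and 22 over the small libraries. For klf9 the interaction was 0.94 ± 0.24 (adjusted p = 0.0274), lost without large pituitary replicate 1 or 3, small muscle replicate 2 or 3 or any small pituitary library (up to 0.0806). The gene cebpd, with 29.1, 45.7 and 41.2 CPM in large and 121.1, 113.3 and 106.9 CPM in small pituitary, was lower in large females in both tissues (-1.56 ± 0.23 and -0.72 ± 0.22), with an interaction of -0.84 ± 0.31 (adjusted p = 0.104), called without large muscle replicate 1 (adjusted p = 0.0242).

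Of 29 clock rule genes, 2 had a higher and 5 a lower interaction (7.01% and 1.87% of all rule genes), and with median-of-ratios scaling 2 and 3. The repressor gene ciart had 6.52, 11.2 and 9.49 CPM in large and 24.4, 24.3 and 22.9 CPM in small pituitary. In muscle it had 35.7, 32.2 and 42.9 CPM in large and 29.1, 31.1 and 30.8 CPM in small females. It was lower in large pituitary (-1.39 ± 0.18, adjusted p = 0.00105) and not called in muscle (0.28 ± 0.18, adjusted p = 0.271), with an interaction of -1.67 ± 0.25 (adjusted p = 0.00242). The Rev-erb-like receptor gene nr1d2b had 26.7, 21.1 and 26.9 CPM in large and 37.5, 33.8 and 34.5 CPM in small pituitary, and 19.99, 23.4 and 31.5 CPM in large and 12.7, 9.08 and 9.75 CPM in small muscle. Here the call came from muscle (1.23 ± 0.20), and the interaction was -1.73 ± 0.26 (adjusted p = 0.00242). The gonad median of nr1d2b was 4.92 times the muscle median, close to the limit of 5, and the part of gonad RNA in its muscle values was not tested.

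The period gene per1 had 44.6, 48.6 and 56.0 CPM in large and 92.5, 88.7 and 88.4 CPM in small pituitary, with overlapping classes in muscle. Its interaction of -1.03 ± 0.25 (adjusted p = 0.0221) was lost without large pituitary replicate 1, small muscle replicate 1 or 2 or any small pituitary library (up to 0.0569). For tefb, lower in large females in both tissues (-1.95 ± 0.24 and -0.78 ± 0.25), the interaction was -1.16 ± 0.34 (adjusted p = 0.0461). That call was lost without large pituitary replicate 1 or 2, large muscle replicate 2 or 3 or any small library (up to 0.112), and under 3 of the 4 other scalings. The paralog ciartb had an interaction of 0.23 ± 0.19 (adjusted p = 0.466). The repressor gene nfil3-6 was higher instead (1.28 ± 0.29, adjusted p = 0.0167), with 13.6, 9.25 and 14.01 CPM in large and 35.2, 30.1 and 26.6 CPM in small muscle, a call lost without small pituitary replicate 3 (adjusted p = 0.0502).

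Fuel genes gave single calls. Of 31 rule genes of glycolysis and gluconeogenesis, 3 had a higher and 1 a lower interaction (7.01% and 1.87% of all rule genes). The phosphofructokinase gene pfkma, muscle type, had 2.75, 2.90 and 3.65 CPM in large and 0.341, 0.239 and 0.738 CPM in small pituitary, against 898.3, 734.3 and 1009 CPM in large and 783.0, 763.6 and 760.4 CPM in small muscle. The interaction was 2.59 ± 0.36 (adjusted p = 0.00174). It passed the level limit in pituitary through large females alone, with 16 counts over the 3 small pituitary libraries. The median level of 334 muscle genes in pituitary was 0.0528% to 0.0662% of the muscle level in large and 0.05% to 0.0586% in small females. The glycogen synthase gene gys1 and the UDP-glucose gene ugp2b had interactions of 0.83 ± 0.22 and 0.70 ± 0.20 (adjusted p = 0.0335 and 0.0393), and fbp2, for a gluconeogenic phosphatase of muscle, had -1.33 ± 0.36 (adjusted p = 0.0344). Each of these 3 calls was lost without any of the small libraries and without 2 of the large pituitary libraries, replicates 2 and 3 for gys1, 1 and 3 for ugp2b and 1 and 2 for fbp2 (up to 0.0947). The calls of gys1 and ugp2b were also lost with factors over the rule genes only.

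Of 36 rule genes of fatty acid use, 2 had a higher and 1 a lower interaction (7.01% and 1.87% of all rule genes). In large muscle 12 were lower, against 18.2% of all rule genes. The phosphatidate phosphatase gene lpin1a had 8.12, 7.85 and 7.16 CPM in large and 6.56, 5.17 and 5.99 CPM in small pituitary, and 5.91, 2.52 and 2.04 CPM in large and 17.7, 21.0 and 14.5 CPM in small muscle (interaction 2.73 ± 0.41, adjusted p = 0.00252). The acyl-CoA ligase gene acsl6 had an interaction of -1.36 ± 0.31 (adjusted p = 0.0174), lost without large muscle replicate 2 (adjusted p = 0.0883) and with library totals alone. The acyl-CoA dehydrogenase gene acadvl had 1.02 ± 0.28 (adjusted p = 0.0379), lost without large pituitary replicate 2 or any small library (up to 0.0955) and with factors over the rule genes only. The mitochondrial coactivator gene ppargc1a was lower in large muscle (-2.90 ± 0.66, adjusted p = 0.00565), with an interaction of 2.79 ± 0.87 (adjusted p = 0.0583), called without large muscle replicate 1 (adjusted p = 0.019). With 11 counts over the 3 large muscle libraries, ppargc1a reached the level limit in muscle through small females alone.

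Other lists were counted beside the same 8.88%. Of 71 cytosolic ribosomal protein genes 0 were higher and 1 lower, of 52 oxidative phosphorylation genes 0 and 1, of 39 proteasome genes 1 and 0, and of 16 mitochondrial ribosomal protein genes 0 and 1. Of 63 translation factor and tRNA synthetase genes 1 was higher and 1 lower, of 39 splicing genes 1 and 1, of 42 heat shock and chaperone genes 1 and 1, and of 18 fatty acid and sterol synthesis genes 1 and 1. Of 64 collagen and matrix genes 3 were higher and 0 lower, of 18 muscle growth regulators 1 and 0, and of 10 thyroid hormone genes 1 and 0. Of 39 secretory folding genes edgeR called 0, with 3 at an unadjusted p under 0.05 and 2 called by DESeq2, and of 4 replication genes it called 0, with 0 at an unadjusted p under 0.05 and 0 by DESeq2. Median interactions of these lists ran from -0.28 for splicing genes to 0.59 for thyroid hormone genes. The medians of the proteasome, oxidative phosphorylation, mitochondrial ribosomal, translation, secretory folding, heat shock, glycolysis, collagen, clock, sarcomere and muscle regulator lists lay near 0 and changed sign under at least 1 other scaling.

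**Figure D4:**
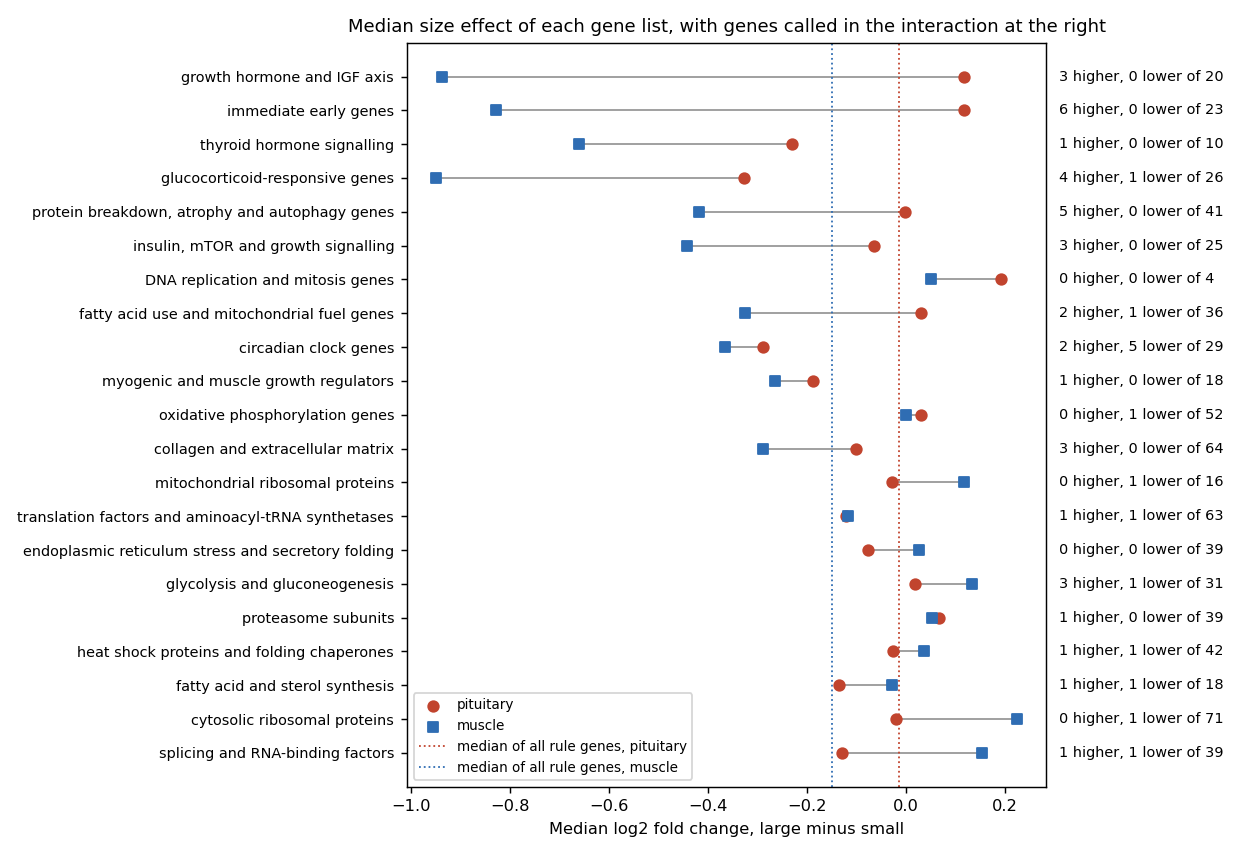
Median log2 fold change between large and small females over the rule genes of each list other than the marker lists of other cells, as red circles for pituitary and blue squares for muscle, with all rule genes as dotted lines and the interaction calls at the right. The growth hormone and IGF, immediate early and glucocorticoid lists have muscle medians of -0.94, -0.83 and -0.95. The complement and erythrocyte lists, markers of liver and blood, are not drawn and have -1.07 and -0.77.

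In the lower direction, 3 genes were lower in large pituitary and higher in large muscle, each called. The repressor gene bcl6ab had 2.97, 2.98 and 1.75 CPM in large and 7.75, 9.47 and 11.2 CPM in small pituitary, and 18.9, 18.8 and 14.9 CPM in large and 10.9, 10.38 and 9.56 CPM in small muscle. The interaction was -2.65 ± 0.32 (adjusted p = 0.00069). The Cdc42 effector gene cdc42ep1, which acts on the actin skeleton, had 2.10, 1.49 and 1.90 CPM in large and 4.86, 5.89 and 5.58 CPM in small pituitary, and 14.3, 12.3 and 14.01 CPM in large and 6.97, 7.57 and 6.50 CPM in small muscle (interaction -2.51 ± 0.30, adjusted p = 0.000686). LOC103388644, named as fibrous sheath CABYR-binding protein-like, had 9.13, 15.0 and 12.8 CPM in large and 29.4, 24.9 and 27.5 CPM in small pituitary. Its values in muscle were 12.3, 10.2 and 10.5 CPM in large and 6.37, 5.41 and 8.41 CPM in small females, and its interaction was -1.85 ± 0.30 (adjusted p = 0.00388). The size classes of these 3 genes did not overlap in either tissue, and their interaction calls stood under all 12 omissions and all 4 other scalings. Their opposite directions were less secure. The muscle call of bcl6ab was lost without large muscle replicate 2 or any small muscle library (adjusted p up to 0.118) and with library totals alone. For LOC103388644 the muscle call was lost under 9 omissions (adjusted p up to 0.139) and 3 of the 4 other scalings, and the pituitary call without small pituitary replicate 1 (adjusted p = 0.0503).

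Other lower interactions came from genes higher in large muscle. The actin-severing gene gsn had 173.0, 167.2 and 165.2 CPM in large and 139.4, 127.3 and 128.7 CPM in small pituitary, but 68.8, 29.9 and 43.5 CPM in large and 8.76, 8.22 and 10.1 CPM in small muscle (interaction -2.03 ± 0.33, adjusted p = 0.00388). Its gonad median was 4.33 times the muscle median, close to the limit of 5. The keratin gene LOC103386127 had 98.4, 89.5 and 62.4 CPM in large and 46.0, 50.9 and 46.5 CPM in small pituitary, and 264.0, 86.9 and 187.1 CPM in large and 19.7, 23.1 and 21.2 CPM in small muscle. Both tissues had higher values in large females, and the interaction was -2.26 ± 0.43 (adjusted p = 0.0074). The arrestin-domain gene arrdc2 had 24.6, 26.8 and 30.4 CPM in large and 52.6, 49.4 and 50.6 CPM in small pituitary, and 159.3, 114.5 and 295.1 CPM in large and 86.6, 84.1 and 90.03 CPM in small muscle (interaction -2.02 ± 0.36, adjusted p = 0.00577).

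The carbonic anhydrase 1-like gene LOC103377360 had 207.4, 51.0 and 411.5 CPM in large and 30.1, 32.4 and 29.8 CPM in small muscle (interaction -3.39 ± 0.77, adjusted p = 0.0158). In pituitary it had 20.9, 67.7 and 52.6 CPM in large and 68.5, 67.8 and 68.8 CPM in small females. The interleukin receptor gene il13ra2 had 2.95, 2.38 and 11.97 CPM in large and 0.796, 1.30 and 1.15 CPM in small muscle (interaction -2.93 ± 0.67, adjusted p = 0.0167), a call lost without small muscle replicate 1 (adjusted p = 0.0543). It had 16 counts over the 3 small muscle libraries and reached the level limit in muscle through large females alone. This favoured a lower interaction. LOC103391030, named as a Sb:cb1022 protein, had 22.3, 14.9 and 47.6 CPM in large and 10.9, 4.54 and 6.12 CPM in small muscle (interaction -2.60 ± 0.51, adjusted p = 0.00828).

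The egg yolk precursor gene LOC103392297, a vitellogenin-2-like gene, had the lowest interaction among the named genes (-5.93 ± 1.27, adjusted p = 0.0125). It had 258.5, 13.9 and 24.5 CPM in large and 6.37, 8.65 and 7.84 CPM in small muscle, and 1.16, 1.02 and 1.53 CPM in large and 5.11, 6.05 and 6.48 CPM in small pituitary. The highest value was in large muscle replicate 1, the large muscle library with liver genes at 2.37% of their liver level. The gene averaged 54560 CPM in large livers and 2.80 CPM in small livers. Without that library the interaction was -3.54 (adjusted p = 0.000332).

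**Figure D5:**
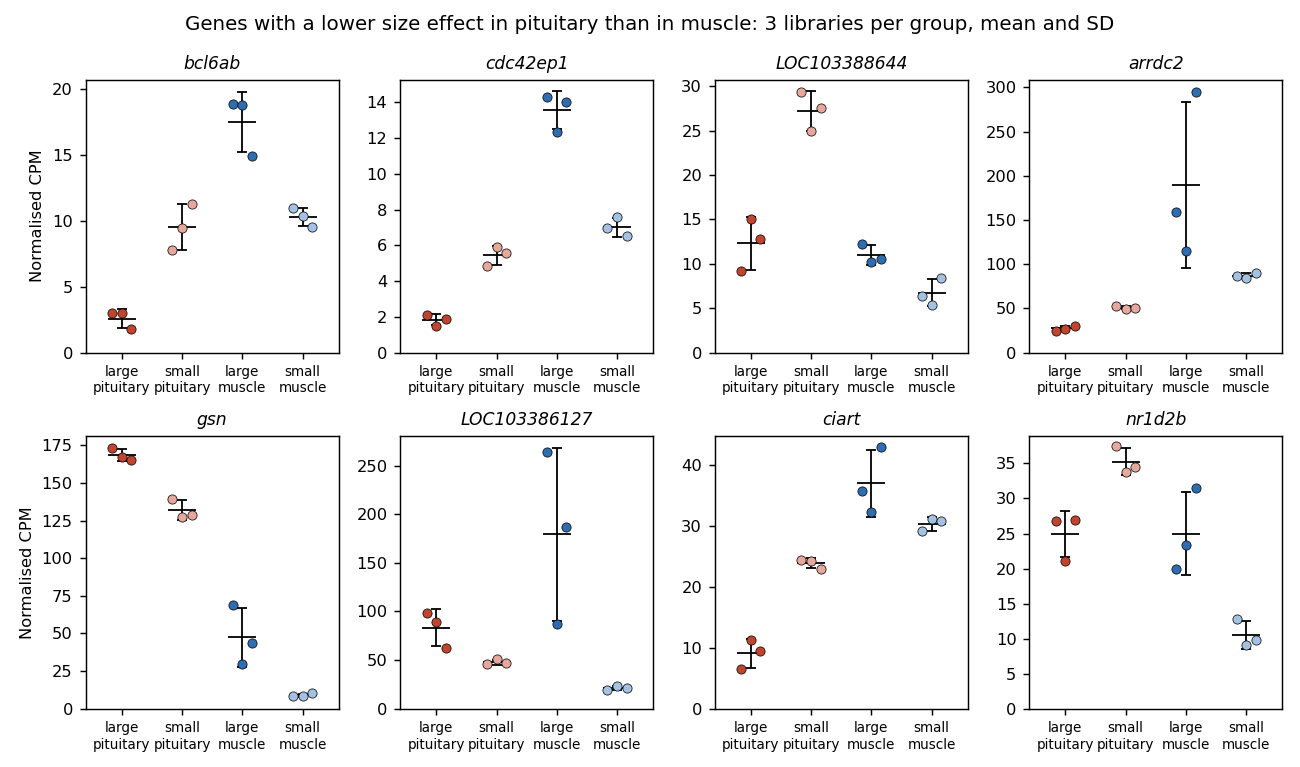
Normalised CPM in each library for 8 genes with a lower size effect in pituitary than in muscle, with mean and SD of 3 libraries. The first 4 genes, ciart and nr1d2b are lower in large than in small pituitary in every library, gsn and LOC103386127 are higher in large females in both tissues, and the 3 large muscle libraries of arrdc2 and LOC103386127 spread widely.

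Among genes called in the same direction in both tissues, the 4 with the smallest interaction p still differed in size. The Max-binding repressor gene mnt had 11.6, 12.6 and 19.4 CPM in large and 37.5, 37.8 and 39.1 CPM in small pituitary, and 9.31, 8.55 and 6.71 CPM in large and 48.2, 52.8 and 48.4 CPM in small muscle. Its size effect was -1.39 ± 0.18 in pituitary and -2.59 ± 0.20 in muscle, an interaction of 1.197 ± 0.26 (adjusted p = 0.0142). For the kinase gene wnk4, which regulates ion transport, the effects were -0.80 ± 0.16 and -1.94 ± 0.17, with an interaction of 1.14 ± 0.23 (adjusted p = 0.0101). The glycogen-targeting phosphatase subunit gene ppp1r3a had -0.77 ± 0.18 and -1.82 ± 0.16 (interaction 1.05 ± 0.24, adjusted p = 0.017), a call lost without small pituitary replicate 1 or 2 (up to 0.054). The kinase gene alpk3a had -1.73 ± 0.20 in pituitary and -0.63 ± 0.17 in muscle, with an interaction of -1.11 ± 0.26 (adjusted p = 0.0174).

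Of 28 sarcomere rule genes, 1 had a higher and 2 a lower interaction (7.01% and 1.87% of all rule genes). The oxygen store gene mb had 1.52, 0.392 and 1.90 CPM in large and 0, 0.159 and 0.164 CPM in small pituitary (interaction 3.05 ± 0.80, adjusted p = 0.0297), and passed the level limit there through large females alone. The membrane junction gene jph1 had 24.1, 22.6 and 29.1 CPM in large and 76.2, 75.9 and 83.0 CPM in small pituitary (interaction -0.89 ± 0.22, adjusted p = 0.0221), and the thin filament gene tmod4 had 18.1, 12.4 and 18.9 CPM in large and 32.7, 32.4 and 36.2 CPM in small pituitary (interaction -0.998 ± 0.29, adjusted p = 0.0428). All 3 calls were lost without any of the small libraries or large pituitary replicate 1, mb also without large pituitary replicate 3, and tmod4 also without large pituitary replicate 2 or large muscle replicate 3 (up to 0.102). The call of tmod4 was also lost with median-of-ratios scaling. The grancalcin-like gene LOC103389442, over the gonad limit and so no rule gene, had 11.7, 6.43 and 7.37 CPM in large pituitary and 5.68, 3.37 and 0.584 CPM in large muscle, and 0 counts in all 6 small libraries, so that its size effects cannot be set against each other.

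Markers of other cells were counted beside the 8.88% of all rule genes called. Of the rule genes on each list, smooth muscle and endothelium had 0 higher and 2 lower of 26, leukocytes 0 and 1 of 38, erythrocytes 1 and 1 of 7, and pituitary hormones 1 and 0 of 5. Of 29 complement and acute phase genes edgeR called 0, with 3 at an unadjusted p under 0.05 and 1 called by DESeq2, and of 2 oocyte genes it called 0, with 0 at an unadjusted p under 0.05 and 0 by DESeq2. The complement list summed to 1103 to 10900 CPM in large muscle and to 7883 to 8190 CPM in small muscle. Erythrocyte genes summed to 2725 to 3228 CPM in large and 4461 to 4641 CPM in small muscle, and smooth muscle and endothelium genes to 364.1 to 377.6 CPM in large and 512.3 to 530.9 CPM in small pituitary. Leukocyte genes summed to 876.6 to 1586 CPM in large and 826.5 to 844.3 CPM in small pituitary, and their part in the interactions was not tested.

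Brain and liver, which neither the rule nor the test used, were described without a test. Of 564 rule genes with a higher interaction and at least 1 CPM in brain, 43.4% were higher in large brains, against 49.9% of all 8010 rule genes there. In liver the shares were 38.5% of 533 and 46.4% of 7685. Of the rule genes with a lower interaction, 53.1% of 145 were higher in large brains and 54.1% of 135 in large livers.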

How the data were processed

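RNA-seq of pituitary and muscle from large and small females was used, in 12 of 30 libraries. The deposited table gives, per the file headers, a count and an FPKM value per gene and library, made by the authors. For the aligner, the counter and the build, the sources used here name none, and the submitters' processing notes name edgeR. Of the deposited counts, 2.0% were not whole, so they were rounded as estimated counts. Gene names came from the table and the RefSeq gene table, with 6342 rule genes having a symbol.

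edgeR 4.0.16 (R 4.3.3) fitted 4 groups of 3 libraries with TMM scaling, filterByExpr and the quasi-likelihood test. Benjamini-Hochberg adjustment ran over all 17034 genes tested, and a call is an adjusted p of at most 0.05. Values after ± are approximate standard errors of log2 fold changes unless marked SD. They are the absolute log2 fold change divided by the square root of F from the quasi-likelihood test. CPM are TMM-normalised except in the rule. The limits of the rule used counts scaled by library totals alone. The fit was also run on simulated counts, in which large and small libraries had the same spread for a gene. The libraries here differed in spread, so that run does not test the calls under unequal spread. Alternatives used DESeq2 1.42.0, limma 3.58.1 on FPKM values as log2(FPKM + 1), other scalings, other limits and omission of each library. Nothing says that libraries of a group came from separate tanks or crosses, so p-values measure at most the spread between these pools. If the small libraries of a tissue are repeats of 1 pool, their part of that spread is not one between pools.

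The genes and the 29 gene lists were chosen with earlier results of these data known, and the 10 lists described by gene were picked after the values of all lists were seen. Named were, per direction, the 10 largest called interactions with at least 5 CPM in the higher size class of each tissue and no overlap in the tissue with the larger effect, the 6 with the smallest p among genes called in opposite directions, the 4 with the smallest p called in the same direction, up to 4 per described list, and a set of genes fixed by name.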

Additional observations from a re-analysis of the deposited data

Results flagged for a closer look

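For 58 named genes the size effect differed between pituitary and muscle by the interaction test itself (edgeR's quasi-likelihood test, adjusted p of at most 0.05). The value in parentheses is the log2 size effect in pituitary less that in muscle. It was above 0 for 39. The highest were mpz (7.35), camk2a (6.56), cyp24a1 (6.03), XLOC_009778 (4.87), LOC103395765 (4.10), LOC103386020 (4.08), egr1 (4.07), fosab (3.96), UGT2B31 (3.81), zic1 (3.81), june (3.73), bicd1 (3.60), sik1 (3.60) and mb (3.05). Without large pituitary replicate 2, mpz had 3.17 and camk2a 2.78. Next came zbtb16b (2.83), fosl2 (2.73), lpin1a (2.73), pfkma (2.59), nav3 (2.58), LOC103394481 (2.57), atg2a (1.79), btg1 (1.58), cish (1.51), stat3 (1.44), igf2r (1.32), nfil3-6 (1.28), mnt (1.197) and atg2b (1.15). Then followed wnk4 (1.14), tsc1a (1.097), ppp1r3a (1.05), pik3r1 (1.02), acadvl (1.02), klf9 (0.94), wipi2 (0.85), gys1 (0.83), rb1cc1 (0.77), ugp2b (0.70) and ptena (0.69). In pituitary mpz, zic1, mb, pfkma and LOC103394481 reached the level limit through large females alone. In muscle cyp24a1 reached it through small females alone. For all of these the limit favoured a higher interaction.

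It was below 0 for 19. The lowest were LOC103392297 (-5.93), LOC103377360 (-3.39), il13ra2 (-2.93), bcl6ab (-2.65), LOC103391030 (-2.60), cdc42ep1 (-2.51), LOC103386127 (-2.26), gsn (-2.03), arrdc2 (-2.02), LOC103388644 (-1.85), nr1d2b (-1.73), ciart (-1.67), acsl6 (-1.36) and fbp2 (-1.33). The others were tefb (-1.16), alpk3a (-1.11), per1 (-1.03), tmod4 (-0.998) and jph1 (-0.89). The gene il13ra2 reached the level limit in muscle through large females alone, which favoured a lower interaction. The results above give library values for many of these genes, though not for all. They also name the libraries without which an interaction call was lost.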

How the results depend on the processing

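Against 726 interaction calls (573 higher, 153 lower), 199 pituitary calls and 1876 muscle calls, counts moved by more than 1.5 times as follows, and the cause was not tested except where fewer libraries or another gene set is the alternative itself. DESeq2 called 1181 interactions (1015 higher) and 493 genes in pituitary. Library totals alone gave 474 interactions, 65 of them lower. limma on log2(FPKM + 0.1) gave 352 (292 higher, 60 lower), on log2(FPKM + 1) without a filter 423 (355 and 68), and with the filter 92 lower. All 30 libraries fitted together gave 444 (366 and 78). A minimum log2 change of 1 left 43 (37 and 6), 13 in pituitary and 70 in muscle. Pituitary had 673 calls with voom and a spread per group, 487 from its own 6 libraries and 117 at 5 CPM or more. The small libraries summed gave 0 interactions (0 higher, 0 lower), 0 in pituitary and 2 in muscle. With no gonad limit there were 1549 interactions (964 lower) and 3873 muscle calls, and with a limit of 2 times 77 lower.

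Of alternatives chosen after seeing the data, factors over the rule genes gave 371 higher and 365 lower, and leaving out large pituitary replicate 2 and large muscle replicate 1 gave 1401 interactions (1130 and 271) and 513 pituitary calls. Leaving out genes with a liver median of 5 or more times the muscle median gave 680. Leaving out 1 library at a time gave 349 to 1064 interactions, 281 to 874 higher, 68 to 201 lower, 77 to 415 in pituitary and 1310 to 2106 in muscle. Pituitary calls were 81, 86 and 77 without small pituitary replicate 1, 2 and 3, and 415, 317 and 340 without large muscle replicate 1, 2 and 3. Interactions lower were 95 without large pituitary replicate 1, and interactions higher 874 without large muscle replicate 3.

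The interaction of foxo3a, -0.02 and not called, was 0.12 with DESeq2, 0.058 with median-of-ratios scaling, 0.038 with TMM within each tissue, 0.064 with unfiltered FPKM, 0.21 with voom, 0.20 and 0.088 with the replicate blocks, and -0.68 to 1.44 without 1 library. That of igf2, 0.17 and not called, was -0.032 with factors over the rule genes and -0.11 to 0.40 without 1 library, lowest without large muscle replicate 1. A replicate block of size class and number gave 522 interactions, and a replicate block of number 585 interactions, 168 pituitary and 1718 muscle calls. Same-numbered libraries of pituitary and muscle correlated at 0.06, -0.07 and 0.18 in large and at 0.001, 0.009 and -0.01 in small females. The same number gave the highest correlation for large replicates 1 and 3 and small replicate 2. These values do not settle whether same-numbered libraries came from the same fish, and the main fit left them unpaired. Of 58 named called genes, 573 of 696 calls stood and 123 were lost over the omissions of 1 library, 57 kept the call with DESeq2 and 38 with all 30 libraries. Library totals of 6906731 to 9998812 counts limit what can be seen near 1 CPM.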
